A study of Capra hircus with 6 samples.

Results

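This comparison set the UCHL1 knockdown line directly against the HSPA8 knockdown line of the goat cell line mGSCs-I-SB, which the labels call spermatogonial stem cells. Its members were the 2 libraries labelled shUCHL1 and the 2 labelled shHSPA8, 4 of the 6 libraries of the series, and they were taken by their labels alone. The cells are goat (Capra hircus) male germline cells grown with 10% fetal bovine serum, shUCHL1 carries a short hairpin RNA against UCHL1, and shHSPA8 carries one against HSPA8, their genotypes being given as knockdowns. The remaining 2 libraries, shCON, carry a control hairpin with a genotype labelled WT. Their levels are given beside the difference. They entered the estimate of the spread, the choice of genes to test and the scaling between libraries, but the fold change does not compare them. Messenger RNA was sequenced, and 16599 genes carried values, of which 12665 had enough counts to be tested. The labels do not give the number of hairpins per target, whether clones or pools were used or whether replicate libraries stem from different cultures. The p-values can then reflect the library-to-library spread alone, which could be technical.

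UCHL1 is a ubiquitin carboxyl-terminal hydrolase that is abundant in neurons and in spermatogonia, where it marks undifferentiated germ cells. It cleaves ubiquitin from small adducts and helps to keep the pool of free ubiquitin. HSPA8, the constitutive cytosolic HSP70 chaperone also called HSC70, folds new and damaged proteins, uncoats clathrin vesicles and delivers substrates to the lysosome in chaperone-mediated autophagy. Both act in protein turnover, and the series title describes UCHL1 as an antagonist of HSPA8 in the surroundings of male germline stem cells. The direct comparison asks in which genes the knockdown of one differs from the knockdown of the other. Throughout, a difference is the log2 fold change of shUCHL1 minus shHSPA8 from edgeR's quasi-likelihood test, so that a positive value means a higher level in shUCHL1. A gene is called where its p, adjusted by Benjamini-Hochberg over all 12665 genes, is under 0.05. Levels are in CPM, each gene's share of its library's counts after TMM scaling, and they are compared between libraries, not between genes.

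Each targeted gene was lowest in the line that carries its hairpin. UCHL1 stood at 94.3 and 97.7 CPM in shUCHL1, 386 and 334 CPM in shHSPA8 and 405 and 451 CPM in shCON. The UCHL1 level was thus 3.75-fold lower in the UCHL1 knockdown (log2 fold change -1.91, SE 0.11, adjusted p 2.01e-04), with the shHSPA8 libraries a little below the shCON libraries. HSPA8 stood at 5252 and 5345 CPM in shUCHL1, 2631 and 2528 CPM in shHSPA8 and 4016 and 4112 CPM in shCON. The chaperone transcript was 2.05-fold lower in the HSPA8 knockdown (log2 fold change 1.04, SE 0.07, adjusted p 4.15e-04), and the shCON libraries lay between the lines without touching either. Both targets therefore followed the labels, and both were called in every alternative analysis.

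Total counts per library ran from 15710537 to 16417273. The 2 libraries of shUCHL1 were closer to each other, with a chi-square of 2.39 per degree of freedom, than those of shHSPA8 at 12.1 or shCON at 22.7, so the libraries of each pair differed by more than sampling noise. In a principal component analysis the first component held 46.3% of the variance and set shCON apart from both knockdown lines, and the second, with 34.8%, separated shUCHL1 from shHSPA8. Several members of the stem cell and progenitor list were scarce. DDX4, the germ cell RNA helicase, had 7 to 32 counts per library, and the GDNF receptor subunits GFRA1 and RET had 3 to 17 and 4 to 25. The pluripotency factor POU5F1 had 0 to 2. The receptor KIT, also on the list but not a marker that defines stem cells, had 0 to 1. CD9 and ITGB1, surface proteins that many other cells share, were well covered. So were ITGA6, THY1, which is on the fibroblast list too, and UCHL1, the targeted gene. Of the 47 genes on the stem cell list 33 carried values. ZBTB16, SALL4, NANOS2, NANOS3, DAZL, LIN28A, UTF1 and NEUROG3 were among those without values, for reasons not recorded. The label of the cell type thus had little support from DDX4, GFRA1, RET and POU5F1 and none from the genes without values. Other members of the list were well covered. Whether the cells match the label was not tested. In RNA from whole cultures, fewer cells of a type and less RNA per cell cannot be told apart.

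The knockdown lines differed in the transcripts of matrix, smooth muscle-type contractile and inflammatory genes, whose called members were mostly higher in shHSPA8. They also differed in those of epithelial genes and of the unfolded protein and integrated stress responses, whose called members were mostly higher in shUCHL1. In all, 1843 of 12665 tested genes (14.6%) were called, 785 of them higher in shUCHL1 (6.20%) and 1058 higher in shHSPA8 (8.35%). At least 2-fold apart were 581, split into 290 and 291. The median absolute log2 fold change of the called genes was 0.73, and the median over all tested genes was 0.02. No called gene had overlapping lines, although 65.7% of all tested genes had none either, since only 2 libraries stood on each side. The number of calls rested on the single libraries: without shUCHL1 replicate 1 or 2 it was 257 or 280, without shHSPA8 replicate 1 or 2 it was 585 or 786, and without shCON replicate 1 or 2 it was 3083 or 3084. Scaling by library size alone turned the split to 64.4% of calls higher in shUCHL1, from 42.6%, and moved the median of all genes by 0.10. Called in the full analysis and without each library in turn were 224 genes, 62 higher in shUCHL1 and 162 higher in shHSPA8.

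**Figure D1:**
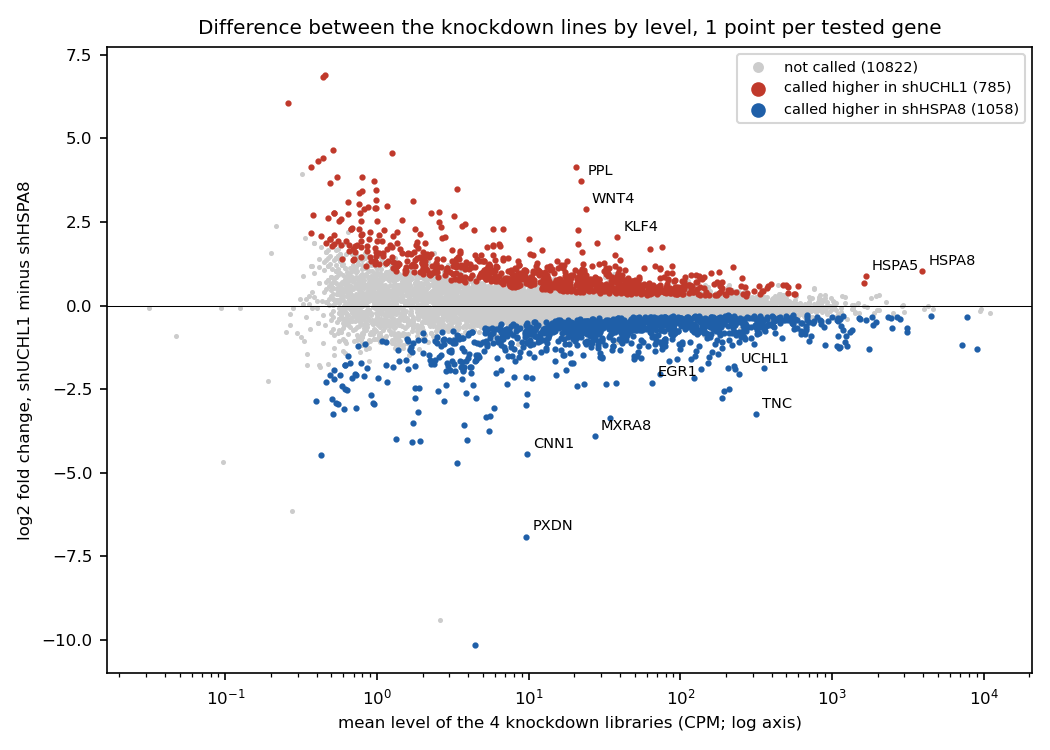
Log2 fold change of shUCHL1 minus shHSPA8 (vertical axis) against the mean CPM of the 4 knockdown libraries (horizontal log axis), 1 point per tested gene, red for the 785 called higher in shUCHL1 and blue for the 1058 called higher in shHSPA8. Called genes lie on both sides over most of the range of levels, and the smallest called difference was 0.28 on the log2 scale; a fitted value of a gene with 3 or fewer counts in a line, such as the lowest point, depends on the prior count and is no measure of size.

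The 12 genes furthest below in shUCHL1, among called genes with a symbol and a mean of at least 5 CPM, were led by PXDN, peroxidasin, which cross-links collagen IV in basement membranes. PXDN stood at 0.0611 and 0.2398 CPM in shUCHL1, 19.3 and 19.01 CPM in shHSPA8 and 8.74 and 12.2 CPM in shCON. Only 5 counts in all came from shUCHL1, so the fitted difference of -6.91 is imprecise in size, but both shUCHL1 libraries lay far below the other 4. CNN1, the smooth muscle actin-binding protein calponin, stood at 1.0997 and 0.5995 CPM in shUCHL1, 20.9 and 16.42 CPM in shHSPA8 and 10.8 and 14.3 CPM in shCON, a 21.8-fold difference with shCON nearer to shHSPA8. TNC, the matrix glycoprotein tenascin C, stood at 61.6 and 58.3 CPM in shUCHL1, 557 and 577 CPM in shHSPA8 and 64.6 and 63.4 CPM in shCON (log2 fold change -3.24, SE 0.09, adjusted p 2.07e-05). Here shUCHL1 and shCON were close together and shHSPA8 was 9.45-fold above shUCHL1. MXRA8, a transmembrane protein of the matrix and cell surface, showed the same arrangement at 3.12 and 3.66 CPM in shUCHL1, 52.3 and 49.8 CPM in shHSPA8 and 4.43 and 5.94 CPM in shCON, which made it 15.04-fold higher in the HSPA8 knockdown (log2 fold change -3.91, SE 0.17, adjusted p 7.68e-05).

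The other 8 of the 12 included secreted peptides and channel proteins. CSF3, the granulocyte colony-stimulating factor, stood at 0.794 and 0.719 CPM in shUCHL1, 10.7 and 9.63 CPM in shHSPA8 and 0.0633 and 0.367 CPM in shCON. TAC1, the precursor of substance P, stood at 0.855 and 1.199 CPM in shUCHL1, 9.99 and 10.3 CPM in shHSPA8 and 3.93 and 4.22 CPM in shCON. VGF, a precursor of neuroendocrine peptides, was 5.66-fold higher in shHSPA8 at 60.8 and 64.1 CPM in shUCHL1, 379.6 and 327 CPM in shHSPA8 and 166 and 215 CPM in shCON. In all 3 genes the lines were separate, and shCON lay below both lines for CSF3 and between them for TAC1 and VGF. PANX1, which forms large membrane channels, stood at 1.16 and 1.32 CPM in shUCHL1 against 9.17 and 11.8 CPM in shHSPA8. KCNMB1, the smooth muscle subunit of the BK potassium channel, stood at 2.26 and 2.098 CPM in shUCHL1 against 16.6 and 17.6 CPM in shHSPA8. ADAMTS9, a secreted metalloproteinase, stood at 10.3 and 10.8 CPM in shUCHL1, 48.4 and 59.3 CPM in shHSPA8 and 56.3 and 40.7 CPM in shCON, so the shCON libraries fell among and below those of shHSPA8. CRMP1, a neuronal cytoskeletal protein, and FOLH1B, a relative of the folate hydrolase FOLH1 whose reads could be shared with it, differed by -2.33 and -3.32 on the log2 scale.

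Furthest above in shUCHL1 was PPL, periplakin, which links desmosomes to intermediate filaments. PPL stood at 41.1 and 41.5 CPM in shUCHL1, 3.098 and 3.103 CPM in shHSPA8 and 39.95 and 46.1 CPM in shCON, a 13.3-fold difference (log2 fold change 3.73, SE 0.14, adjusted p 5.36e-05), and the shUCHL1 libraries lay at the level of shCON while shHSPA8 was low. WNT4, a ligand with roles in the gonad and kidney, stood at 41.7 and 42.03 CPM in shUCHL1, 4.61 and 6.66 CPM in shHSPA8 and 16.7 and 19.7 CPM in shCON, and it was 7.43-fold higher in shUCHL1 (log2 fold change 2.89, SE 0.18, adjusted p 3.14e-04). For WNT4 the control lay between the lines, so that shUCHL1 was above it and shHSPA8 below it. KLF4, a transcription factor of epithelia and of pluripotent cells, stood at 64.1 and 59.4 CPM in shUCHL1, 15.2 and 14.7 CPM in shHSPA8 and 23.1 and 21.4 CPM in shCON (log2 fold change 2.05, SE 0.11, adjusted p 1.88e-04), again with the control between but nearer to shHSPA8.

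SMOC2, a calcium-binding matricellular protein, and CEP72, a centrosomal protein, shared the arrangement of PPL. SMOC2 stood at 11.1 and 11.3 CPM in shUCHL1, 1.896 and 2.72 CPM in shHSPA8 and 9.62 and 11.4 CPM in shCON. CEP72 stood at 17.04 and 14.99 CPM in shUCHL1, 3.603 and 4.46 CPM in shHSPA8 and 16.3 and 16.8 CPM in shCON. ISLR2, a leucine-rich repeat membrane protein, was also low in shHSPA8 alone at 8.003 and 9.95 CPM in shUCHL1, 2.72 and 2.52 CPM in shHSPA8 and 10.8 and 13.2 CPM in shCON. Its relative ISLR stood at 9.84 and 10.01 CPM in shUCHL1, 2.84 and 2.65 CPM in shHSPA8 and 3.61 and 4.28 CPM in shCON, where shCON was nearer to shHSPA8. EGLN3, the prolyl hydroxylase that marks hypoxia-inducible factors for breakdown, was 3.52-fold higher in shUCHL1 at 9.41 and 8.63 CPM in shUCHL1 against 2.72 and 2.39 CPM in shHSPA8. F11R, the junctional adhesion molecule JAM-A, was 3.42-fold higher at 9.77 and 10.1 CPM in shUCHL1 against 2.78 and 3.04 CPM in shHSPA8. PCGF5, a Polycomb protein, was 3.68-fold higher at 46.5 and 41.8 CPM in shUCHL1 against 10.7 and 13.3 CPM in shHSPA8. PPP1R3G, which targets a phosphatase to glycogen, stood at 10.1 and 9.05 CPM in shUCHL1 against 2.09 and 1.81 CPM in shHSPA8. C23H6orf132 stood at 34.3 and 35.97 CPM in shUCHL1 against 7.71 and 6.92 CPM in shHSPA8. All 24 of these genes were called without each library in turn.

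**Figure D2:**
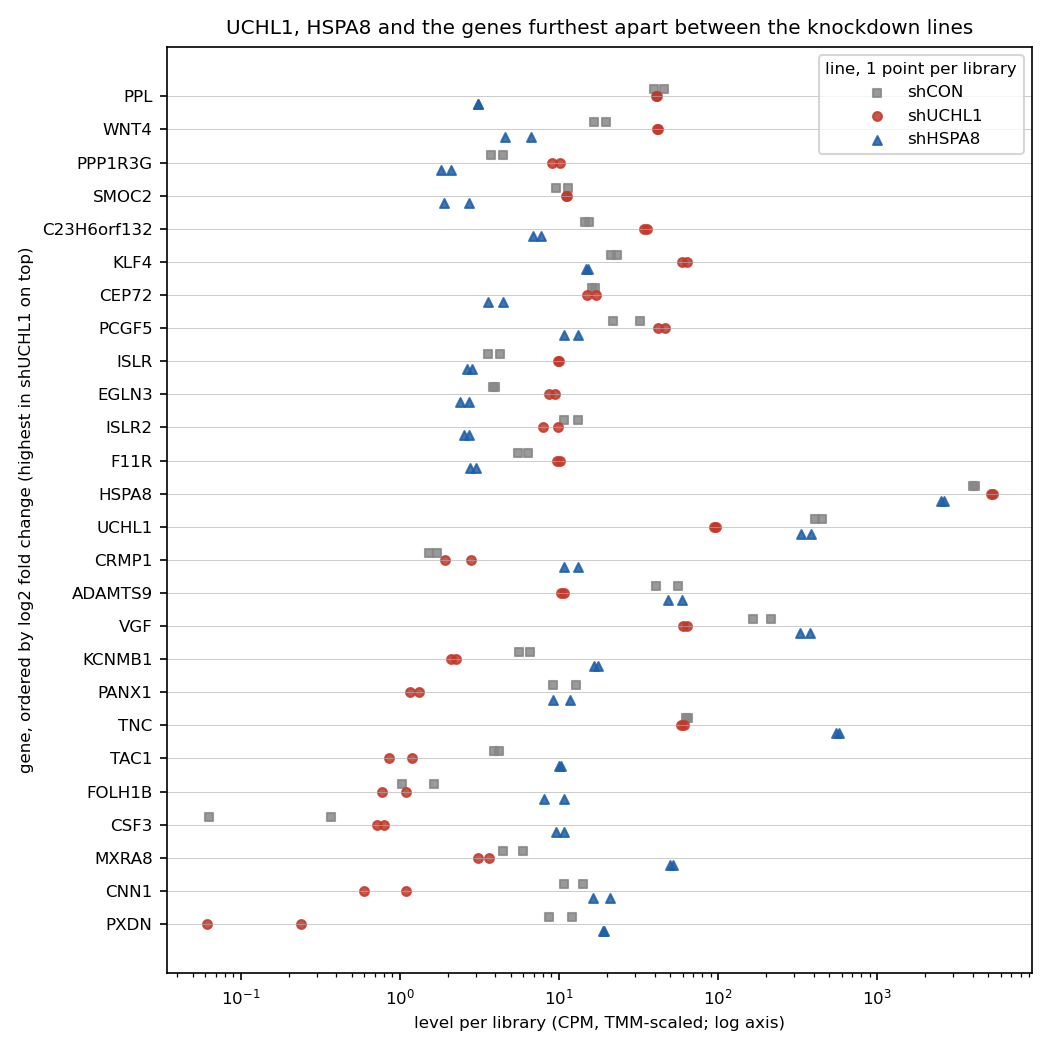
Level in each of the 6 libraries (horizontal log axis, CPM) of UCHL1, HSPA8 and the 12 called genes furthest apart in each direction, ordered by log2 fold change; each point is 1 library, circles shUCHL1, triangles shHSPA8 and squares shCON. The red and blue points of a gene do not overlap, while the grey points lie on the blue side for PANX1 and ADAMTS9, on the red side for PPL and TNC and between for WNT4 and KLF4.

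Most called matrix genes were higher in shHSPA8. Basement membranes are sheets of collagen IV, laminin, nidogen and perlecan under epithelia, around muscle cells and around the seminiferous tubule, and the interstitial matrix is built from fibrillar collagens and proteoglycans. Of the basement membrane list, 2 of 21 tested members were called higher in shUCHL1 and 14 higher in shHSPA8 (76.2% called against 14.6% of all genes), with a median of -0.64. The collagen, proteoglycan and collagen-modifying list had 1 of 51 tested members called higher in shUCHL1 and 25 higher in shHSPA8, with a median of -0.42, and the matricellular list had 2 of 16 tested members called higher in shUCHL1 and 8 higher in shHSPA8, with a median of -0.30. With transcript length held level between libraries by an offset, the matricellular median was -0.63 over the 14 members of known length, which stood at -0.61 without the offset. Counted once each, the 3 lists held 88 tested genes, 47 called higher in shHSPA8 and 5 higher in shUCHL1, against 8.35% and 6.20% of all genes. With 1 library left out the called members ran over 5 to 17 in the basement membrane list, 12 to 32 in the collagen list and 7 to 11 in the matricellular list, lowest without an shUCHL1 library.

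COL4A1 and COL4A2, the chains of the main collagen IV network, differed by the same amount. COL4A1 stood at 148 and 160.0 CPM in shUCHL1, 571 and 549 CPM in shHSPA8 and 207 and 219 CPM in shCON (log2 fold change -1.86, SE 0.09, adjusted p 1.02e-04). COL4A2 stood at 87.1 and 90.3 CPM in shUCHL1, 340.2 and 303 CPM in shHSPA8 and 112 and 132 CPM in shCON (log2 fold change -1.86, SE 0.11, adjusted p 3.14e-04). In both chains shHSPA8 lay far above the other lines and shUCHL1 somewhat below shCON. Among fibrillar and associated matrix genes, COL11A1, a minor fibrillar collagen chain, stood at 60.3 and 56.4 CPM in shUCHL1, 159 and 197 CPM in shHSPA8 and 127 and 101 CPM in shCON. COL27A1, another fibrillar collagen chain, stood at 9.41 and 9.05 CPM in shUCHL1, 24.7 and 22.2 CPM in shHSPA8 and 7.47 and 6.67 CPM in shCON. PRELP, a leucine-rich proteoglycan that anchors basement membranes, was 3.81-fold higher in shHSPA8 and MFAP5, a microfibril protein, 5.25-fold higher. FBLN1, fibulin 1, was the exception among the called collagen-list members: it stood at 78.7 and 79.6 CPM in shUCHL1, 37.9 and 35.2 CPM in shHSPA8 and 92.9 and 107 CPM in shCON and was 2.16-fold higher in shUCHL1. For FBLN1 it was shHSPA8 that lay apart, below the other 4 libraries.

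Among matricellular proteins, which signal to cells from the matrix, SPP1, osteopontin, stood at 94.8 and 94.01 CPM in shUCHL1, 401 and 382 CPM in shHSPA8 and 63.2 and 61.9 CPM in shCON (log2 fold change -2.05, SE 0.08, adjusted p 6.22e-05). SPARCL1, a relative of SPARC, was 6.77-fold higher in shHSPA8 at 1.16 and 1.14 CPM in shUCHL1 against 7.396 and 8.28 CPM in shHSPA8. SBSPON, a somatomedin and thrombospondin domain protein, was 3.67-fold higher at 1.16 and 1.98 CPM in shUCHL1 against 5.44 and 6.14 CPM in shHSPA8. SPON2, a member of the spondin family, went with SMOC2 in being higher in shUCHL1, at 14.8 and 16.8 CPM in shUCHL1 against 6.64 and 4.53 CPM in shHSPA8. The 2 basement membrane members called higher in shUCHL1 were LAMA3, the laminin alpha chain of epithelial laminin, at 0.82, and NTN4, netrin 4, at 0.61. FRAS1, an epithelial basement membrane protein, stood at 0.244 and 0.1799 CPM in shUCHL1 against 0.695 and 1.16 CPM in shHSPA8. LAMA3 and FRAS1 lost the call whichever 1 of the 4 knockdown libraries was left out (highest adjusted p 0.135 and 0.212). NTN4 was not called without shUCHL1 replicate 1 or 2 or shHSPA8 replicate 1 (highest adjusted p 0.114). SPON2 was not called without shUCHL1 replicate 1 or 2 (highest adjusted p 0.0729).

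Of the metalloproteinases that cut matrix and cell surface proteins and their inhibitors, 3 of 37 tested members were called higher in shUCHL1 and 9 higher in shHSPA8, with a median of -0.33. ADAM12, a membrane metalloproteinase, stood at 89.99 and 86.7 CPM in shUCHL1 against 212 and 254 CPM in shHSPA8. ADAMTS1, which cleaves proteoglycans, stood at 73.5 and 67.7 CPM in shUCHL1 against 179.7 and 186 CPM in shHSPA8. MMP3, stromelysin, stood at 15.3 and 15.5 CPM in shUCHL1, 36.1 and 36.5 CPM in shHSPA8 and 5.38 and 5.39 CPM in shCON. The 3 enzymes were between 2.35-fold and 2.64-fold higher in shHSPA8, and for MMP3 both knockdown lines lay above shCON. In the other direction ADAMTS16 was 6.76-fold higher in shUCHL1 at 3.97 and 3.897 CPM in shUCHL1 against 0.506 and 0.647 CPM in shHSPA8. ADAMTS14, a procollagen peptidase, was 1.96-fold higher in shUCHL1 at 116 and 119 CPM in shUCHL1 against 63.3 and 56.2 CPM in shHSPA8. TIMP3, an inhibitor of metalloproteinases bound to the matrix, was 1.49-fold higher at 389 and 395 CPM in shUCHL1 against 261 and 266 CPM in shHSPA8. TIMP3 was not called without shUCHL1 replicate 1 or 2 (highest adjusted p 0.0801). Called members of this list numbered 9 to 15 with 1 library left out.

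**Figure D3:**
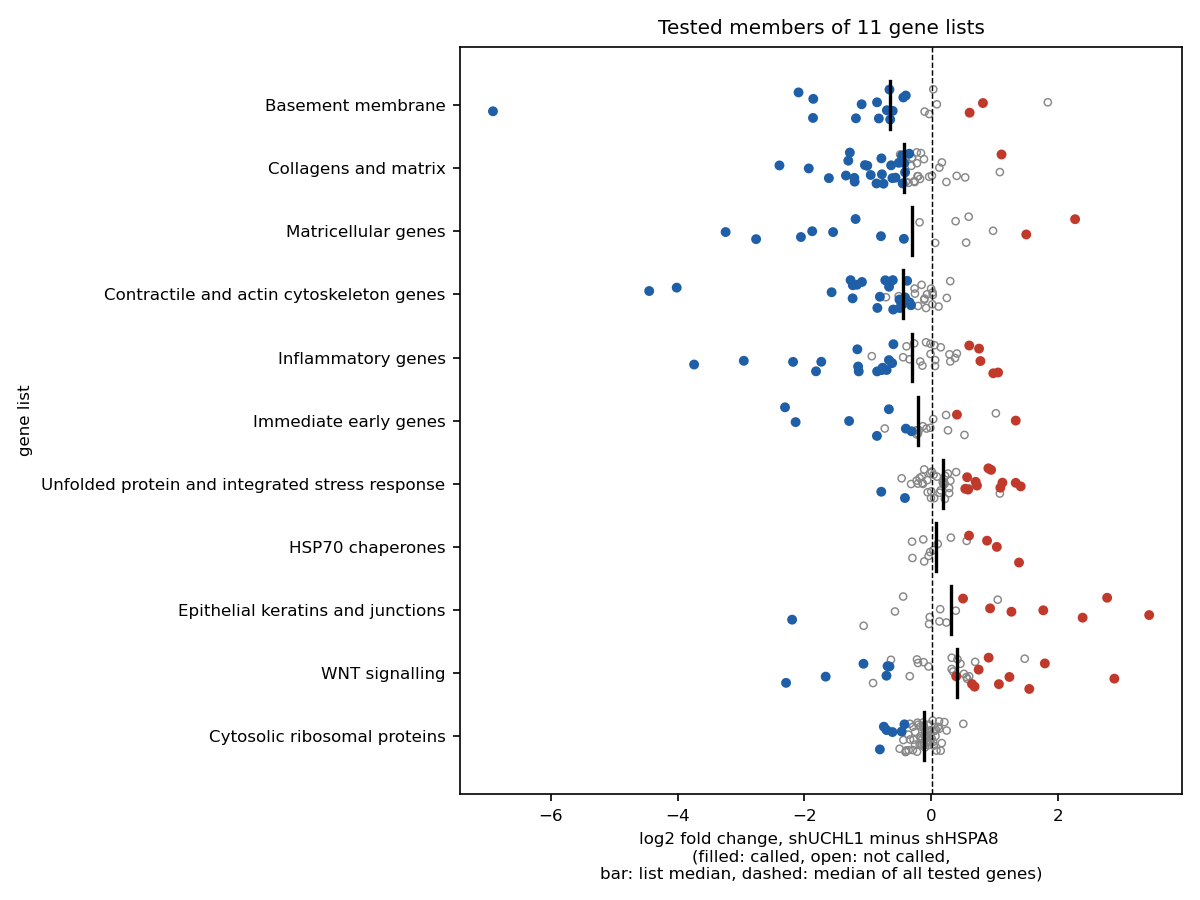
Log2 fold change of shUCHL1 minus shHSPA8 (horizontal axis) of every tested member of 11 gene lists (vertical axis), filled where called, with the list median as a bar and the median of all tested genes, 0.02, as a dashed line; the vertical scatter within a list has no meaning. Basement membrane, collagen and contractile members lie mostly to the left, at medians of -0.64, -0.42 and -0.45, and epithelial and WNT members mostly to the right, at 0.32 and 0.41.

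Contractile genes went one way among those called. These genes encode the actin, myosin and accessory proteins of smooth muscle, myofibroblasts and the peritubular myoid cells that surround the seminiferous tubule. The list had 0 of 39 tested members called higher in shUCHL1 and 22 higher in shHSPA8, with a median of -0.45. DES, the muscle intermediate filament protein desmin, stood at 0.367 and 0.5396 CPM in shUCHL1, 7.84 and 7.05 CPM in shHSPA8 and 5.698 and 7.59 CPM in shCON, so it was nearly absent from shUCHL1 and at similar levels in the other lines. MYLK, the kinase that activates smooth muscle myosin, stood at 27.8 and 27.8 CPM in shUCHL1, 79.6 and 85.4 CPM in shHSPA8 and 57.7 and 53.4 CPM in shCON (log2 fold change -1.57, SE 0.10, adjusted p 3.14e-04). ACTG2, the enteric smooth muscle actin, stood at 109 and 113 CPM in shUCHL1, 282 and 251 CPM in shHSPA8 and 236 and 309 CPM in shCON, with shUCHL1 apart from the other 4 libraries. With CNN1, these 4 genes were called without each library in turn, while the whole list had 7 to 26 called members with 1 library left out.

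The markers of peritubular myoid cells and fibroblasts overlap the contractile and matrix lists, and most of those called were again higher in shHSPA8: 1 of 27 tested members were called higher in shUCHL1 and 14 higher in shHSPA8, with a median of -0.34. With the length offset the median was -0.73 over the 25 members of known length, which stood at -0.66 without it. Summed over all 28 members, their level was 39338 and 39995 CPM in shUCHL1, 53955 and 54839 CPM in shHSPA8 and 42701 and 43857 CPM in shCON, and no member was at 0 in the knockdown lines. The sum holds many of the same genes as the contractile and matrix lists, and the part of a shift between cell types in those results was not tested. S100A4, a calcium-binding protein of fibroblasts, was the single member called higher in shUCHL1, at 592 and 621 CPM in shUCHL1 against 445 and 381 CPM in shHSPA8. S100A4 lost the call whichever 1 of the 4 knockdown libraries was left out (highest adjusted p 0.212). The list kept 10 to 17 called members with 1 library left out.

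Most called inflammatory genes were higher in shHSPA8. Cytokines and chemokines of this list are induced through NF-kB and related factors in many stromal cells, and several feed back on the same pathway. The list had 5 of 38 tested members called higher in shUCHL1 and 15 higher in shHSPA8 (52.6% called), with a median of -0.30 and 10 to 23 called members with 1 library left out. The median was -0.14 with the length offset, over 37 members that stood at -0.27 without it. LIF, a cytokine that signals through gp130, stood at 101 and 98.4 CPM in shUCHL1, 351 and 349.9 CPM in shHSPA8 and 74.6 and 80.7 CPM in shCON (log2 fold change -1.81, SE 0.09, adjusted p 1.08e-04). IL11, another gp130 cytokine, stood at 43.6 and 45.7 CPM in shUCHL1, 216 and 188 CPM in shHSPA8 and 31.7 and 41.5 CPM in shCON (log2 fold change -2.18, SE 0.15, adjusted p 4.15e-04). For both, shHSPA8 stood well above the remaining libraries, and shUCHL1 stood slightly above shCON. The chemokine CCL5 was low everywhere, at 0.122 and 0.1199 CPM in shUCHL1 against 1.14 and 0.8405 CPM in shHSPA8.

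The inflammatory list was not uniform. C3, the central complement component, was 1.98-fold higher in shUCHL1 and above shCON in both lines, at 211 and 210.2 CPM in shUCHL1, 109 and 104 CPM in shHSPA8 and 31.97 and 32.9 CPM in shCON (log2 fold change 0.98, SE 0.08, adjusted p 0.00104). ICAM1, an adhesion molecule for leukocytes, followed at 103 and 108 CPM in shUCHL1 against 64.2 and 58.7 CPM in shHSPA8. TNFAIP2, a TNF-induced gene, stood at 11.3 and 9.35 CPM in shUCHL1 against 5.12 and 4.78 CPM in shHSPA8. TNFAIP3, the deubiquitinase A20 that restrains NF-kB, went with the majority at 34.7 and 34.7 CPM in shUCHL1, 53.7 and 56.3 CPM in shHSPA8 and 11.6 and 14.6 CPM in shCON, where shHSPA8 was highest and shCON lowest. TNFAIP2 and TNFAIP3 lost the call whichever 1 of the 4 knockdown libraries was left out (highest adjusted p 0.179 and 0.146). CCL5 was not called without shUCHL1 replicate 1 or 2 or shHSPA8 replicate 1 (highest adjusted p 0.119). ICAM1 was not called without shUCHL1 replicate 2 (highest adjusted p 0.0584). Of 15 markers of macrophages and leukocytes with values, C1QA and ITGAM had 0 counts in all 4 knockdown libraries and only 5 had enough counts to be tested. Their summed level was 177 and 191 CPM in shUCHL1, 306 and 301 CPM in shHSPA8 and 501 and 507 CPM in shCON, and it was carried by LCP1, an actin-bundling protein, at 125 and 132 CPM in shUCHL1, 241 and 231 CPM in shHSPA8 and 459 and 460.1 CPM in shCON.

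Complement, coagulation and plasminogen genes had 3 of 21 tested members called higher in shUCHL1 and 7 higher in shHSPA8, with 4 to 13 called with 1 library left out. THBD, thrombomodulin, stood at 46.1 and 47.1 CPM in shUCHL1 against 95.6 and 104 CPM in shHSPA8. TFPI2, a protease inhibitor of the matrix, stood at 78.9 and 81.7 CPM in shUCHL1 against 175 and 199 CPM in shHSPA8. PROS1, protein S, was 1.78-fold higher in shHSPA8. SERPINE2, protease nexin 1, went the other way at 623 and 638 CPM in shUCHL1, 479 and 506 CPM in shHSPA8 and 217 and 206 CPM in shCON, above shCON in both lines. CD55, a membrane inhibitor of complement, had 59 counts summed over the shUCHL1 libraries against 4 in shHSPA8 and 0 in shCON. SERPINE2 lost the call whichever 1 of the 4 knockdown libraries was left out (highest adjusted p 0.246). PROS1 was not called without shUCHL1 replicate 1 or 2 or shHSPA8 replicate 2 (highest adjusted p 0.137). CD55 was not called without shUCHL1 replicate 1 (highest adjusted p 0.0571).

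Genes that respond to growth factor signalling within minutes, and the phosphatases and Sprouty proteins that shut the MAPK cascade down again, were mainly higher in shHSPA8 where called. The immediate early list had 2 of 22 tested members called higher in shUCHL1 and 7 higher in shHSPA8, and the MAPK feedback list had 0 of 25 tested members called higher in shUCHL1 and 8 higher in shHSPA8. EGR1, a zinc finger transcription factor, stood at 22.1 and 21.4 CPM in shUCHL1, 107 and 108 CPM in shHSPA8 and 26.9 and 28.5 CPM in shCON (log2 fold change -2.30, SE 0.10, adjusted p 6.65e-05). NR4A1, an orphan nuclear receptor, stood at 3.48 and 3.66 CPM in shUCHL1, 15.9 and 15.5 CPM in shHSPA8 and 4.18 and 5.08 CPM in shCON (log2 fold change -2.14, SE 0.15, adjusted p 5.10e-04). Both were 4-fold or more above shUCHL1 in shHSPA8, and shUCHL1 lay close below shCON. Their relatives NR4A3 and NR4A2 were 2.45-fold and 1.81-fold higher in shHSPA8.

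RGS2, a regulator of G protein signalling, stood at 26.9 and 30.04 CPM in shUCHL1, 119 and 116 CPM in shHSPA8 and 28.1 and 24.2 CPM in shCON (log2 fold change -2.04, SE 0.11, adjusted p 2.05e-04). DUSP6, the phosphatase of ERK, stood at 28.6 and 28.1 CPM in shUCHL1, 56.6 and 52.8 CPM in shHSPA8 and 36.5 and 34.1 CPM in shCON (log2 fold change -0.95, SE 0.10, adjusted p 0.00207). DUSP5, a nuclear ERK phosphatase, was 2.07-fold higher in shHSPA8 and SPRY3, a Sprouty protein, 1.85-fold higher. HBEGF, a membrane-bound ligand of the EGF receptor, stood at 4.399 and 5.28 CPM in shUCHL1 against 10.4 and 10.7 CPM in shHSPA8. Against this direction, ATF3, a stress-induced factor that both lists of early genes and of stress genes share, stood at 27.2 and 24.3 CPM in shUCHL1, 10.7 and 9.63 CPM in shHSPA8 and 17.1 and 20.3 CPM in shCON. FOSL1, a FOS family member, stood at 136 and 139 CPM in shUCHL1 against 105 and 102 CPM in shHSPA8. FOSL1 lost the call whichever 1 of the 4 knockdown libraries was left out (highest adjusted p 0.223). SPRY3 was not called without shUCHL1 replicate 1 or 2 or shHSPA8 replicate 2 (highest adjusted p 0.153). NR4A2 was not called without shUCHL1 replicate 1 or 2 (highest adjusted p 0.0686). NR4A3 was not called without shUCHL1 replicate 2 (highest adjusted p 0.0663). DUSP5 and HBEGF were not called without shUCHL1 replicate 1 (highest adjusted p 0.0568 and 0.078). With 1 library left out, 3 to 10 immediate early and 2 to 10 feedback members were called.

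HSP70 chaperones fold proteins in the cytosol, the mitochondria and the endoplasmic reticulum. Beside HSPA8 itself, the HSP70 list had 3 further called members of 14 tested, all higher in shUCHL1, and its median was 0.07, or 0.04 with the length offset. The 4 called members, the targeted HSPA8 among them, made 28.6% of the list, against 14.6% of all genes. HSPA5, the endoplasmic reticulum chaperone BiP, stood at 2129 and 2203 CPM in shUCHL1, 1184 and 1163 CPM in shHSPA8 and 1332 and 1274 CPM in shCON (log2 fold change 0.88, SE 0.07, adjusted p 8.75e-04), so shUCHL1 was high and shHSPA8 slightly below shCON. HYOU1, which exchanges nucleotides on BiP, stood at 606 and 599 CPM in shUCHL1, 405 and 390.4 CPM in shHSPA8 and 426 and 441 CPM in shCON. HSPA12A, an atypical family member, stood at 5.62 and 3.96 CPM in shUCHL1 against 1.58 and 2.07 CPM in shHSPA8. The cytosolic and mitochondrial relatives HSPA4, HSPH1, HSPA2 and HSPA9 were not called, with log2 fold changes of -0.30, -0.29, -0.11 and -0.04. The stress-inducible HSPA6 missed the threshold at 0.56 with an adjusted p of 0.0569, and it stood at 12.7 and 13.9 CPM in shUCHL1, 9.92 and 8.08 CPM in shHSPA8 and 3.29 and 2.69 CPM in shCON. HSPA12A lost the call whichever 1 of the 4 knockdown libraries was left out (highest adjusted p 0.151). HYOU1 was not called without shUCHL1 replicate 1 or 2 (highest adjusted p 0.0731). The HSP70 list had 2 to 7 called members with 1 library left out.

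The list of HSP90, co-chaperones, small heat shock proteins and chaperonins had 2 of 57 tested members called higher in shUCHL1 and 9 higher in shHSPA8, or 19.3% called, near the 14.6% of all genes, and 0 to 17 with 1 library left out. HSPB7, a small heat shock protein of muscle, stood at 6.11 and 8.27 CPM in shUCHL1 against 22.6 and 22.7 CPM in shHSPA8. HSPB6 stood at 10.02 and 12.9 CPM in shUCHL1 against 24.7 and 21.1 CPM in shHSPA8. HSPB1, also called HSP27, stood at 209.9 and 222 CPM in shUCHL1 against 345 and 304 CPM in shHSPA8. DNAJA4, a cytosolic partner of HSP70, differed by -0.60. The 2 members called higher in shUCHL1 were DNAJB9, a BiP partner in the endoplasmic reticulum, at 0.41, and HSPB8, with 23 counts over the shUCHL1 libraries against 1 over those of shHSPA8. HSPB1, DNAJA4 and DNAJB9 lost the call whichever 1 of the 4 knockdown libraries was left out (highest adjusted p 0.247, 0.286 and 0.336). HSPB6 and HSPB8 were not called without shUCHL1 replicate 1 or 2 or shHSPA8 replicate 1 (highest adjusted p 0.144 and 0.103). HSPB7 was not called without shUCHL1 replicate 1 (highest adjusted p 0.0783).

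The list of the unfolded protein response and the integrated stress response had 11 of 46 tested members called higher in shUCHL1 and 2 higher in shHSPA8 (28.3% called), with a median of 0.19. In this response, kinases that sense misfolded protein or missing amino acids slow translation and raise the factor ATF4 and its targets. TRIB3, a pseudokinase induced by ATF4, stood at 45.9 and 47.3 CPM in shUCHL1, 21.9 and 20.8 CPM in shHSPA8 and 20.5 and 25.6 CPM in shCON (log2 fold change 1.13, SE 0.13, adjusted p 0.00269), with shUCHL1 alone above the rest. CHAC1, which breaks down glutathione, stood at 9.47 and 10.3 CPM in shUCHL1, 4.43 and 2.97 CPM in shHSPA8 and 3.48 and 3.24 CPM in shCON. SESN2, a sensor of leucine, stood at 29.997 and 31.1 CPM in shUCHL1, 15.2 and 13.4 CPM in shHSPA8 and 10.1 and 13.96 CPM in shCON. ATF5, a factor related to ATF4, and VEGFA, a growth factor of vessels, were the 2 members called higher in shHSPA8, at -0.78 and -0.41. ATF5 and VEGFA lost the call whichever 1 of the 4 knockdown libraries was left out (highest adjusted p 0.257 and 0.228). CHAC1 and SESN2 were not called without shUCHL1 replicate 1 or 2 (highest adjusted p 0.0601 and 0.0663). Called members numbered 3 to 16 with 1 library left out.

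Protein turnover genes were called at rates near that of all genes, 14.6%, between 11.9% of proteasome genes and 18.8% of the UCH and ubiquitin list. Of the UCH family and ubiquitin genes, 0 of 16 tested members were called higher in shUCHL1 and 3 higher in shHSPA8: UCHL1 itself, UCHL5, a hydrolase of the proteasome, at 49.4 and 51.6 CPM in shUCHL1 against 80.7 and 77.3 CPM in shHSPA8, and UBE2C, a mitotic ubiquitin-conjugating enzyme, at -0.39. The closest relative UCHL3 differed by 0.16 (adjusted p = 0.326), and the ubiquitin gene UBB differed by 0.02 (adjusted p = 0.897). The ubiquitin fusion gene RPS27A differed by 0.08 (adjusted p = 0.699). Among deubiquitinases outside the family, 3 of 44 tested members were called higher in shUCHL1 and 3 higher in shHSPA8, with OTUB2 at 0.82 and USP4 at -0.51. Among proteasome genes, 2 of 42 tested members were called higher in shUCHL1 and 3 higher in shHSPA8, with a range of -0.57 for PSME1, an activator subunit, to 0.50. Among autophagy genes, 6 of 44 tested members were called higher in shUCHL1 and 0 higher in shHSPA8, led by ATG4C, a protease that processes ATG8 proteins, at 0.62. MAP1LC3C, an autophagy gene outside the list, was called higher in shHSPA8, with 26 counts over its libraries against 1 over those of shUCHL1. UBE2C, USP4 and ATG4C lost the call whichever 1 of the 4 knockdown libraries was left out (highest adjusted p 0.343, 0.18 and 0.191). UCHL5 and PSME1 were not called without shUCHL1 replicate 1 or 2 or shHSPA8 replicate 1 (highest adjusted p 0.106 and 0.149). OTUB2 was not called without shUCHL1 replicate 1 or 2 or shHSPA8 replicate 2 (highest adjusted p 0.0887). Leaving out 1 library, the called members numbered 1 to 7 in the UCH and ubiquitin list, 0 to 13 among the other deubiquitinases, 0 to 8 in the proteasome list and 0 to 10 in the autophagy list.

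The lysosome list had 1 of 47 tested members called higher in shUCHL1 and 7 higher in shHSPA8, or 17.0% called, near the 14.6% of all genes, with 5 to 14 called with 1 library left out. GM2A, the activator of ganglioside breakdown, stood at 46.8 and 47.1 CPM in shUCHL1, 144 and 142 CPM in shHSPA8 and 56.7 and 64.9 CPM in shCON (log2 fold change -1.61, SE 0.10, adjusted p 3.14e-04). CTSH, a cathepsin, stood at 48.4 and 47.96 CPM in shUCHL1, 114 and 108 CPM in shHSPA8 and 54.4 and 61.2 CPM in shCON (log2 fold change -1.20, SE 0.10, adjusted p 8.75e-04). CTSK, the collagen-degrading cathepsin K, stood at 16.43 and 15.9 CPM in shUCHL1, 39.3 and 46.6 CPM in shHSPA8 and 11.3 and 9.73 CPM in shCON. NPC2, a carrier of lysosomal cholesterol, stood at 98.5 and 102 CPM in shUCHL1, 207 and 189 CPM in shHSPA8 and 83.9 and 92.3 CPM in shCON. In all 4 shHSPA8 lay alone above the others. NPC1, the membrane partner of NPC2, went the other way at 76.7 and 75.96 CPM in shUCHL1 against 56.3 and 54.6 CPM in shHSPA8. NPC1 lost the call whichever 1 of the 4 knockdown libraries was left out (highest adjusted p 0.19).

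Most called epithelial genes were higher in shUCHL1. The list of keratins, desmosome and tight junction genes had 7 of 18 tested members called higher in shUCHL1 and 1 higher in shHSPA8 (44.4% called), a median of 0.32 and 3 to 9 called members with 1 library left out. The median was 0.18 with the length offset, over 15 members that stood at 0.24 without it. DSP, desmoplakin, the plaque protein that periplakin accompanies, stood at 5.74 and 6.42 CPM in shUCHL1, 0.759 and 1.55 CPM in shHSPA8 and 0.507 and 0.735 CPM in shCON (log2 fold change 2.39, SE 0.30, adjusted p 0.00382). ESRP1, an epithelial splicing factor, stood at 1.41 and 1.32 CPM in shUCHL1 against 0.253 and 0.129 CPM in shHSPA8. PERP, a desmosomal protein, stood at 1.77 and 1.86 CPM in shUCHL1 against 0 and 0.323 CPM in shHSPA8. These levels were low in absolute terms, at a few CPM. KRT8, a keratin of simple epithelia, was the reverse at 1.59 and 1.02 CPM in shUCHL1, 6.26 and 5.69 CPM in shHSPA8 and 18.3 and 21.3 CPM in shCON, highest in shCON and lowest in shUCHL1. ESRP1 was not called without shUCHL1 replicate 1 or 2 or shHSPA8 replicate 2 (highest adjusted p 0.0665). PERP was not called without shUCHL1 replicate 1 or 2 or shHSPA8 replicate 1 (highest adjusted p 0.1).

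Stem cell and gonadal markers showed no common direction. Of the stem cell and progenitor list, 33 of 47 genes carried values, and 3 of 20 tested members were called higher in shUCHL1 and 5 higher in shHSPA8, including UCHL1 itself and KLF4, with a median of -0.21. With the length offset the median was -0.33, over 16 members that stood at -0.27 without it. THY1, a surface protein of stem cells and of fibroblasts, stood at 61.5 and 65.8 CPM in shUCHL1, 148 and 135 CPM in shHSPA8 and 140.2 and 169 CPM in shCON (log2 fold change -1.15, SE 0.12, adjusted p 0.0019). ITGA6, an integrin chain, stood at 63.8 and 59.2 CPM in shUCHL1, 102 and 121 CPM in shHSPA8 and 96.6 and 68.3 CPM in shCON. ADGRA3 and GDNF were 1.396-fold and 1.41-fold higher in shHSPA8, and EPCAM and TSPAN33, surface proteins at under 3 CPM, were higher in shUCHL1 by 1.27 and 1.83 on the log2 scale. CD9, ETV5 and ITGB1 were not called, at 0.00, 0.15 and -0.21. GFRA1 had 6 counts summed over shUCHL1 and 20 over shHSPA8 and was not called (adjusted p = 0.158), nor was RET at 44 and 18 counts (adjusted p = 0.0621). ADGRA3, GDNF, EPCAM and TSPAN33 lost the call whichever 1 of the 4 knockdown libraries was left out (highest adjusted p 0.202, 0.296, 0.14 and 0.235). ITGA6 was not called without shUCHL1 replicate 1 or 2 or shHSPA8 replicate 2 (highest adjusted p 0.141). The stem cell list had 3 to 10 called members with 1 library left out.

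Of Sertoli cell markers, 4 of 17 tested members were called higher in shUCHL1 and 1 higher in shHSPA8. SOX9, the factor that sets Sertoli cell fate, stood at 52.3 and 51.6 CPM in shUCHL1, 26.1 and 33.2 CPM in shHSPA8 and 76.2 and 67.6 CPM in shCON. GATA4, a gonadal transcription factor, stood at 76.9 and 76.2 CPM in shUCHL1, 59.4 and 51.6 CPM in shHSPA8 and 94.6 and 112 CPM in shCON. For both, shCON was highest and shHSPA8 lowest. INHBB, an activin and inhibin subunit, stood at 1.53 and 1.92 CPM in shUCHL1 against 0.253 and 0.194 CPM in shHSPA8, and GATA6 differed by 0.71. Summed over its 20 members with values, the Sertoli list stood at 4213 and 4269 CPM in shUCHL1 and 4636 and 4351 CPM in shHSPA8. That order is opposite to that of SOX9 and GATA4, but a sum follows its most abundant members. By sign, 11 of the 17 tested members were higher in shUCHL1 and 6 in shHSPA8, with a median of 0.19. ESR1, the estrogen receptor, was 2.32-fold higher in shUCHL1 at 25.5 and 22.3 CPM in shUCHL1 against 8.79 and 11.8 CPM in shHSPA8, whereas TBX2 and NR2F1, developmental factors, were 1.73-fold and 1.51-fold higher in shHSPA8. GATA4 and GATA6 lost the call whichever 1 of the 4 knockdown libraries was left out (highest adjusted p 0.265 and 0.291). SOX9, TBX2 and NR2F1 were not called without shUCHL1 replicate 1 or 2 or shHSPA8 replicate 1 (highest adjusted p 0.0887, 0.159 and 0.253). INHBB was not called without shUCHL1 replicate 2 (highest adjusted p 0.0501). ESR1 was not called without shUCHL1 replicate 1 (highest adjusted p 0.0652). Leydig markers had 2 members called in each direction of 9 tested, and their sums lay within 424 to 481 CPM in the knockdown lines. Endothelial markers had 2 in each direction of 11 tested and sums of 326 and 347 CPM in shUCHL1 and 513 and 487 CPM in shHSPA8, with FLT1, a VEGF receptor, at 55.4 and 54.3 CPM in shUCHL1, 19.5 and 19.3 CPM in shHSPA8 and 6.71 and 6.06 CPM in shCON. ENG, endoglin, stood at 221 and 241 CPM in shUCHL1 against 426 and 401 CPM in shHSPA8 and carried most of the endothelial sum. By sign alone, 6 tested endothelial members were higher in shUCHL1 and 5 in shHSPA8, with a median of 0.22, so the sum does not describe the list. ENG was not called without shUCHL1 replicate 1 (highest adjusted p 0.0657). Called members with 1 library left out numbered 0 to 7 for Sertoli markers and 1 to 4 for Leydig and for endothelial markers alike.

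**Figure D4:**
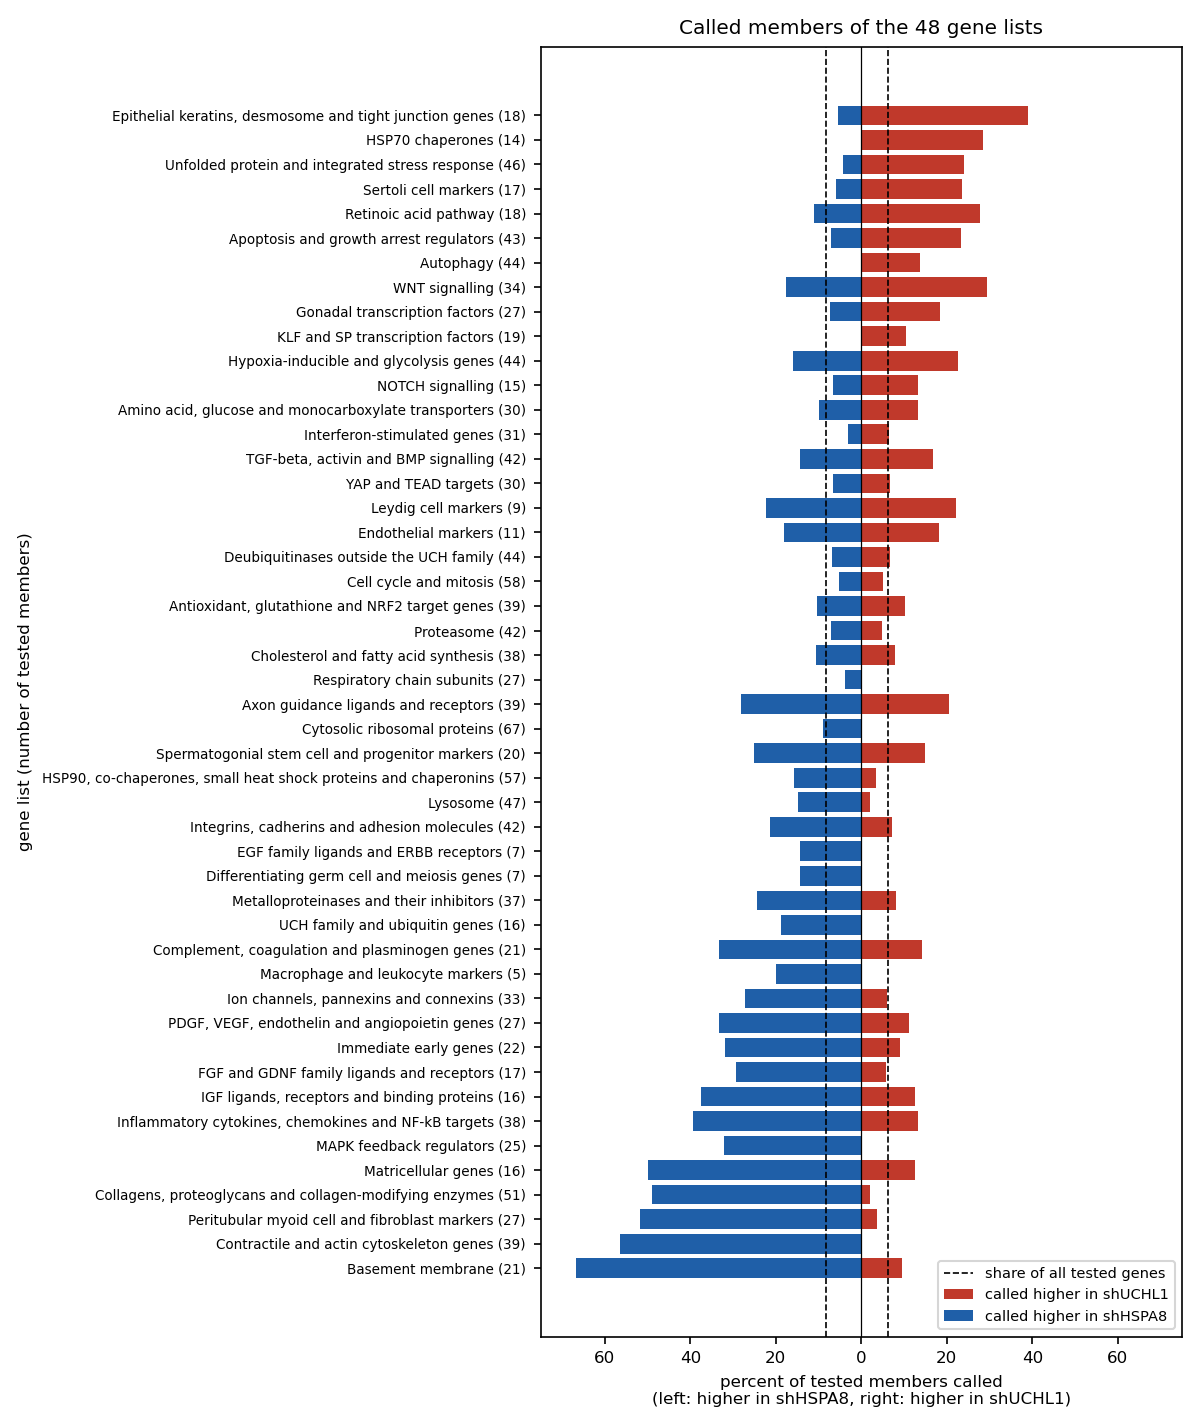
Percent of the tested members of each of 48 gene lists (vertical axis, number tested in brackets) called higher in shHSPA8 (blue, to the left) and higher in shUCHL1 (red, to the right), with dashed lines at the shares of all tested genes, 8.35% and 6.20%. The longest blue bars are those of the basement membrane, contractile, myoid and matricellular lists, and the longest red bar is that of the epithelial list.

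More WNT and retinoic acid genes were called higher in shUCHL1 than in shHSPA8, though both lists had calls in each direction. Of the WNT list 47.1% of tested members were called, against 14.6% of all genes. Over all genes 6.20% were called higher in shUCHL1 and 8.35% higher in shHSPA8. WNT proteins bind Frizzled receptors, and their reach is set by secreted antagonists and by R-spondins. The WNT list had 10 of 34 tested members called higher in shUCHL1 and 6 higher in shHSPA8, with a median of 0.41 and 1 to 20 called members with 1 library left out, so that WNT4 was the one member called in every such fit. Among receptors, FZD6 stood at 41.6 and 39.4 CPM in shUCHL1 against 14.5 and 19.8 CPM in shHSPA8. ROR1 stood at 3.18 and 3.597 CPM in shUCHL1 against 0.885 and 1.42 CPM in shHSPA8, while ROR2 was higher in shHSPA8 at 2.02 and 2.22 CPM in shUCHL1 against 5.75 and 7.69 CPM in shHSPA8. Among secreted modulators, SFRP1, an antagonist, differed by 1.80, and the R-spondins RSPO3 and RSPO2 by -2.29 and -1.07. SFRP1, RSPO3 and RSPO2 lost the call whichever 1 of the 4 knockdown libraries was left out (highest adjusted p 0.272, 0.168 and 0.16). FZD6 and ROR1 were not called without shUCHL1 replicate 1 or 2 or shHSPA8 replicate 1 (highest adjusted p 0.0835 and 0.114). ROR2 was not called without shUCHL1 replicate 1 (highest adjusted p 0.0568).

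Retinoic acid, made from vitamin A by aldehyde dehydrogenases, drives germ cell differentiation in the testis. The list had 5 of 18 tested members called higher in shUCHL1 and 2 higher in shHSPA8 (38.9% called, against 14.6% of all genes). DHRS3, which turns retinaldehyde back into retinol, stood at 4.77 and 4.02 CPM in shUCHL1, 0.885 and 0.647 CPM in shHSPA8 and 6.58 and 7.35 CPM in shCON (log2 fold change 2.50, SE 0.25, adjusted p 0.00174). ALDH1A3, which makes retinoic acid, stood at 23.03 and 23.3 CPM in shUCHL1, 10.5 and 10.9 CPM in shHSPA8 and 92.3 and 81.5 CPM in shCON (log2 fold change 1.12, SE 0.11, adjusted p 0.00198). For both enzymes shCON was highest and shHSPA8 lowest. RARB, a receptor that retinoic acid induces, followed at 15.9 and 16.9 CPM in shUCHL1 against 8.85 and 8.34 CPM in shHSPA8. CRABP2, a carrier of retinoic acid, stood at 27.7 and 30.6 CPM in shUCHL1, 19.6 and 16.5 CPM in shHSPA8 and 81.99 and 106 CPM in shCON. The retinol carrier RBP4 was higher in shHSPA8, with a log2 fold change of -0.41. CRABP2 and RBP4 lost the call whichever 1 of the 4 knockdown libraries was left out (highest adjusted p 0.206 and 0.283). RARB was not called without shUCHL1 replicate 1 or 2 (highest adjusted p 0.0622). Called members of the retinoic acid list ran from 2 to 7 with 1 library left out.

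Of the called members of the FGF, PDGF and IGF lists more were higher in shHSPA8 than in shUCHL1. Calls over all genes leaned the same way, with 8.35% higher in shHSPA8 and 6.20% higher in shUCHL1, or 14.6% together. The FGF, PDGF and IGF lists had 6 of 17, 12 of 27 and 8 of 16 tested members called. FGF7, a stromal growth factor for epithelia, stood at 59.7 and 57.1 CPM in shUCHL1, 208 and 224 CPM in shHSPA8 and 66.7 and 55.6 CPM in shCON (log2 fold change -1.89, SE 0.11, adjusted p 3.14e-04), with shHSPA8 alone above the rest. HGF, the ligand of MET, stood at 17.5 and 17.6 CPM in shUCHL1 against 33.6 and 46.4 CPM in shHSPA8. FGF10 stood at 2.14 and 2.098 CPM in shUCHL1 against 4.804 and 3.88 CPM in shHSPA8. ANGPT2, an angiopoietin, stood at 0.0611 and 0.2998 CPM in shUCHL1 against 0.885 and 1.23 CPM in shHSPA8. The FGF and GDNF list had 1 of 17 tested members called higher in shUCHL1 and 5 higher in shHSPA8, and the PDGF, VEGF, endothelin and angiopoietin list had 3 of 27 tested members called higher in shUCHL1 and 9 higher in shHSPA8. IGF-binding proteins, which hold IGF in the extracellular space, were split, and the IGF list had 2 of 16 tested members called higher in shUCHL1 and 6 higher in shHSPA8. IGFBP7 stood at 76.1 and 83.7 CPM in shUCHL1, 246 and 215 CPM in shHSPA8 and 183 and 239 CPM in shCON (log2 fold change -1.53, SE 0.15, adjusted p 0.00147). IGFBP2 stood at 2.75 and 2.698 CPM in shUCHL1, 10.6 and 10.2 CPM in shHSPA8 and 36.3 and 49.4 CPM in shCON. IGFBP4 stood at 12.1 and 13.4 CPM in shUCHL1 against 30.6 and 26.8 CPM in shHSPA8, so these 3 were higher in shHSPA8. IGFBP3 went the other way at 18.2 and 15.71 CPM in shUCHL1, 10.9 and 9.504 CPM in shHSPA8 and 2.03 and 2.14 CPM in shCON. STC2, a regulator of IGF release, did so at 49.6 and 49.2 CPM in shUCHL1 against 29.6 and 30.1 CPM in shHSPA8. FGF10, ANGPT2 and IGFBP3 lost the call whichever 1 of the 4 knockdown libraries was left out (highest adjusted p 0.187, 0.179 and 0.185). HGF and STC2 were not called without shUCHL1 replicate 1 or 2 (highest adjusted p 0.0871 and 0.0722). IGFBP4 was not called without shUCHL1 replicate 1 (highest adjusted p 0.0522). Leaving out 1 library gave 1 to 6 called members in the FGF and GDNF list, 1 to 12 in the PDGF and VEGF list and 2 to 8 in the IGF list.

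Genes of TGF-beta, activin and BMP signalling were called in both directions: 7 of 42 tested members were called higher in shUCHL1 and 6 higher in shHSPA8, with 2 to 18 called with 1 library left out. INHBA, the activin A subunit, stood at 26.6 and 25.7 CPM in shUCHL1, 52.8 and 57.1 CPM in shHSPA8 and 73.2 and 80.4 CPM in shCON (log2 fold change -1.07, SE 0.10, adjusted p 0.00147). FST, follistatin, which binds and blocks activin, stood at 47.2 and 45.3 CPM in shUCHL1, 103 and 108 CPM in shHSPA8 and 199 and 205 CPM in shCON (log2 fold change -1.19, SE 0.09, adjusted p 5.68e-04). Ligand and antagonist thus differed alike, with shUCHL1 lowest and shCON highest. In the other direction GDF6, a BMP family ligand, stood at 6.54 and 6.95 CPM in shUCHL1 against 2.97 and 2.39 CPM in shHSPA8. INHBE, an activin subunit, stood at 11.1 and 11.03 CPM in shUCHL1 against 5.56 and 4.59 CPM in shHSPA8. NOG, the BMP antagonist noggin, stood at 2.199 and 1.92 CPM in shUCHL1 against 0.632 and 0.323 CPM in shHSPA8. BAMBI, a decoy receptor, differed by -1.07. BAMBI lost the call whichever 1 of the 4 knockdown libraries was left out (highest adjusted p 0.268). NOG was not called without shUCHL1 replicate 1 or 2 or shHSPA8 replicate 2 (highest adjusted p 0.112). GDF6 and INHBE were not called without shUCHL1 replicate 1 or 2 (highest adjusted p 0.0601 and 0.0626).

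Guidance, adhesion and channel genes included members in each direction. The axon guidance list had 8 of 39 tested members called higher in shUCHL1 and 11 higher in shHSPA8, with 2 to 26 called with 1 library left out. SEMA3C, a secreted semaphorin, stood at 102 and 89.8 CPM in shUCHL1, 23.6 and 36.01 CPM in shHSPA8 and 11.5 and 7.59 CPM in shCON (log2 fold change 1.69, SE 0.23, adjusted p 0.00515). SEMA6D, a membrane semaphorin, stood at 0.794 and 0.659 CPM in shUCHL1, 3.67 and 4.98 CPM in shHSPA8 and 0.127 and 0.245 CPM in shCON. SEMA3C was thus higher in shUCHL1 and SEMA6D in shHSPA8. Of integrins, cadherins and adhesion molecules, 3 of 42 tested members were called higher in shUCHL1 and 9 higher in shHSPA8. ITGA9, an integrin chain that binds tenascin, stood at 0.183 and 0.3597 CPM in shUCHL1, 3.098 and 3.23 CPM in shHSPA8 and 0.127 and 0.367 CPM in shCON. ITGA8, an integrin chain of mesenchyme, stood at 1.77 and 1.68 CPM in shUCHL1, 5.69 and 5.495 CPM in shHSPA8 and 1.46 and 1.71 CPM in shCON. The collagen-binding chains ITGA1 and ITGA2 were 2.21-fold and 2.65-fold higher in shHSPA8, and CDH6, a cadherin, was 3.17-fold higher in shUCHL1 at 4.77 and 4.796 CPM in shUCHL1 against 1.26 and 1.75 CPM in shHSPA8. ITGA1 was not called without shUCHL1 replicate 1 or 2 or shHSPA8 replicate 2 (highest adjusted p 0.112). ITGA2 was not called without shUCHL1 replicate 1 or 2 (highest adjusted p 0.0558). The adhesion list had 3 to 19 called members with 1 library left out.

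Among ion channels, pannexins and connexins, 2 of 33 tested members were called higher in shUCHL1 and 9 higher in shHSPA8. The BK potassium channel was split between its subunits. KCNMA1, which forms the pore, stood at 9.96 and 11.3 CPM in shUCHL1, 4.24 and 3.75 CPM in shHSPA8 and 1.46 and 1.102 CPM in shCON (log2 fold change 1.41, SE 0.17, adjusted p 0.00347), whereas KCNMB1, the accessory subunit named above, stood at 2.26 and 2.098 CPM in shUCHL1, 16.6 and 17.6 CPM in shHSPA8 and 5.64 and 6.55 CPM in shCON. The pore subunit was thus highest in shUCHL1 and the accessory subunit highest in shHSPA8. Voltage-gated calcium channel chains were also split, CACNA1C and CACNA1A at -0.99 and -1.32 and CACNA1G at 1.19. CACNA1G lost the call whichever 1 of the 4 knockdown libraries was left out (highest adjusted p 0.159). CACNA1C and CACNA1A were not called without shUCHL1 replicate 1 or 2 (highest adjusted p 0.0901 and 0.0801). The channel list had 3 to 15 called members with 1 library left out.

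Hypoxia-inducible and glycolysis genes were called in both directions: 10 of 44 tested members were called higher in shUCHL1 and 7 higher in shHSPA8, with a median of -0.02, which scaling by library size alone turned to 0.08 and the length offset to -0.04. The glucose transporters differed in sign: SLC2A1, the basal form GLUT1, stood at 245 and 252 CPM in shUCHL1, 375 and 394 CPM in shHSPA8 and 135 and 146 CPM in shCON. SLC2A3, the neuronal form GLUT3, stood at 33.9 and 30.6 CPM in shUCHL1, 11.8 and 15.3 CPM in shHSPA8 and 32.7 and 22.3 CPM in shCON. The lactate exporters SLC16A3 and SLC16A1 were 1.95-fold and 1.56-fold higher in shUCHL1, and ENO1, an enolase, was 1.42-fold higher in shHSPA8. ENO1 lost the call whichever 1 of the 4 knockdown libraries was left out (highest adjusted p 0.209). SLC2A3 and SLC16A1 were not called without shUCHL1 replicate 1 or 2 or shHSPA8 replicate 1 (highest adjusted p 0.0787 and 0.113). SLC2A1 and SLC16A3 were not called without shUCHL1 replicate 1 or 2 (highest adjusted p 0.0867 and 0.0534). Called members of the list ran from 1 to 23 with 1 library left out, and EGLN3 was called each time.

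Antioxidant genes likewise divided: 4 of 39 tested members were called higher in shUCHL1 and 4 higher in shHSPA8. That is 20.5% called, near the 14.6% of all genes. SOD2, the mitochondrial superoxide dismutase, stood at 187 and 193 CPM in shUCHL1, 409 and 428 CPM in shHSPA8 and 94.7 and 94.6 CPM in shCON (log2 fold change -1.14, SE 0.08, adjusted p 4.15e-04). PRDX6, a peroxiredoxin, stood at 453 and 469 CPM in shUCHL1, 978 and 930.1 CPM in shHSPA8 and 399 and 413 CPM in shCON (log2 fold change -1.05, SE 0.08, adjusted p 5.48e-04). GPX3, a secreted glutathione peroxidase, stood at 4.46 and 4.32 CPM in shUCHL1, 13.4 and 12.3 CPM in shHSPA8 and 1.52 and 1.35 CPM in shCON. All 3 were highest in shHSPA8 and lowest in shCON. The NRF2 targets NQO1 and GCLM and the ferritin light chain FTL went the other way, by 0.69, 0.73 and 0.68. GCLM lost the call whichever 1 of the 4 knockdown libraries was left out (highest adjusted p 0.247). NQO1 and FTL were not called without shUCHL1 replicate 1 or 2 (highest adjusted p 0.0855 and 0.0801). Called antioxidant genes numbered 3 to 14 with 1 library left out.

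Among regulators of apoptosis and growth arrest, 10 of 43 tested members were called higher in shUCHL1 and 3 higher in shHSPA8, with 1 to 15 called with 1 library left out. GADD45A, a growth arrest gene, stood at 119 and 125 CPM in shUCHL1, 54.6 and 53.7 CPM in shHSPA8 and 103 and 106 CPM in shCON (log2 fold change 1.17, SE 0.09, adjusted p 5.77e-04), low in shHSPA8 alone. PMAIP1, the proapoptotic protein NOXA, stood at 4.46 and 4.497 CPM in shUCHL1 against 1.71 and 1.87 CPM in shHSPA8. CDKN1A, the inhibitor p21, stood at 63.05 and 65.2 CPM in shUCHL1, 40.6 and 39.9 CPM in shHSPA8 and 27.4 and 30.9 CPM in shCON. Of 58 tested cell cycle genes, 3 were called in each direction (10.3% called in all, below the 14.6% of all genes), among them CCND2, a cyclin of G1, at 6.29 and 5.94 CPM in shUCHL1 against 14.2 and 12.4 CPM in shHSPA8, and CDKN1B, the inhibitor p27, at 0.65. CDKN1B lost the call whichever 1 of the 4 knockdown libraries was left out (highest adjusted p 0.162). PMAIP1 was not called without shUCHL1 replicate 1 or 2 or shHSPA8 replicate 1 (highest adjusted p 0.0722). CDKN1A and CCND2 were not called without shUCHL1 replicate 1 or 2 (highest adjusted p 0.095 and 0.0601). For the cell cycle list the called members ran from 0 to 14 with 1 library left out.

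Lists with few calls were the interferon-stimulated genes, at 2 of 31 tested members called higher in shUCHL1 and 1 higher in shHSPA8, the respiratory chain, at 0 of 27 tested members called higher in shUCHL1 and 1 higher in shHSPA8, and the cytosolic ribosomal proteins, at 0 of 67 tested members called higher in shUCHL1 and 6 higher in shHSPA8. In that order 9.68%, 3.70% and 8.96% were called, against 14.6% of all genes. The ribosomal calls, all higher in shHSPA8, were near the 8.35% of all genes in that direction. The ribosomal and respiratory medians, -0.11 and -0.12, moved to 0.05 and -0.003 once transcript length was held level between libraries. Ranked by transcript length, the shortest 3047 tested genes had a median difference of -0.09 and the longest 3046 one of 0.07, so short transcripts were slightly higher in shHSPA8. The cholesterol and fatty acid list had 3 of 38 tested members called higher in shUCHL1 and 4 higher in shHSPA8, or 18.4% called, near the 14.6% of all genes. INSIG1, the sterol sensor partner, stood at 28.4 and 29.1 CPM in shUCHL1, 17.3 and 18.1 CPM in shHSPA8 and 39.4 and 42.5 CPM in shCON. FASN, fatty acid synthase, stood at 245 and 248 CPM in shUCHL1, 309 and 323 CPM in shHSPA8 and 505 and 538 CPM in shCON. FASN lost the call whichever 1 of the 4 knockdown libraries was left out (highest adjusted p 0.258). INSIG1 was not called without shUCHL1 replicate 1 or 2 or shHSPA8 replicate 1 (highest adjusted p 0.0933). Leaving out 1 library gave 0 to 5 called interferon-stimulated genes, 0 to 4 respiratory genes, 0 to 16 ribosomal genes and 0 to 17 genes of the cholesterol list. Across all 48 lists, chosen with earlier results in view, 377 of 1329 distinct tested members (28.4%) were called.

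For most of the called genes the control line lay between the knockdown lines. Of the 785 genes higher in shUCHL1, the shCON mean lay between the lines in 482, below both in 184 and above both in 119. Of the 1058 higher in shHSPA8, it lay between in 592, below both in 274 and above both in 192. PXDN, KLF4 and WNT4 are examples of a control in between, LIF, SOD2 and C3 of one below both, and PANX1 and ALDH1A3 of one above both. On a log2 scale with 1 CPM added, shCON was nearer to shUCHL1 for 587 of the 1058 genes higher in shHSPA8 and nearer to shHSPA8 for 432 of the 785 genes higher in shUCHL1. These positions describe levels only, since the control libraries are not part of the difference. Genes were called because the knockdown lines lay apart. A wide gap by itself leaves more room for the shCON mean to fall between. The share over all tested genes was not computed, so this position is not shown to be particular to the called genes.

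The authors' deposited table carries its own p-value for this pair of lines, and 3462 of the tested genes have one under 0.05 there. All 1843 called genes have the same direction in the authors' deposited table, and 1772 also have a deposited p under 0.05. Both rest on the same libraries, so the shared direction is no independent check, and any adjustment of the deposited p is not stated. Of the genes with 3 or fewer counts in a line, 16 were called, and no fold is given for them. Among these, LIFR, the receptor of LIF, had 80 counts over the shUCHL1 libraries and 3 over those of shHSPA8, and TNFRSF9, a receptor of the TNF family, had 29 and 0. RPL22L1, a ribosomal protein paralog, had 30 and 0. The uncharacterised gene LOC102175592 had 0 counts over the shUCHL1 libraries and 276 over those of shHSPA8. LIFR, TNFRSF9, RPL22L1 and LOC102175592 were singled out after their values were seen.

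**Figure D5:**
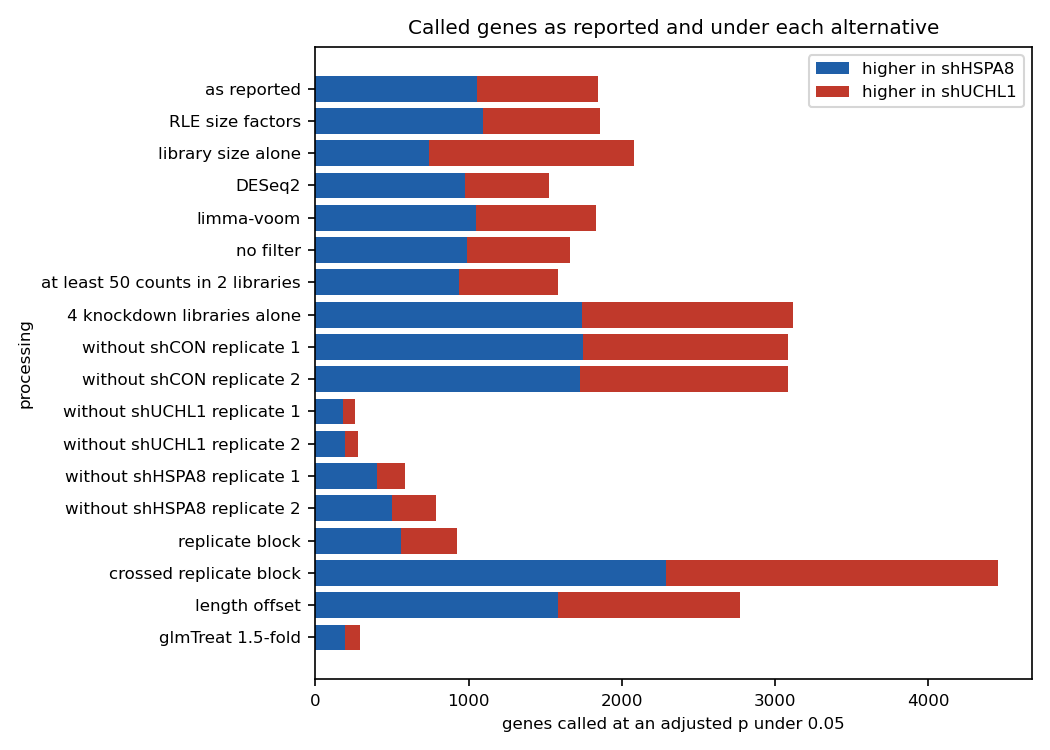
Number of genes called (horizontal axis) as reported and under each of 17 alternative analyses (vertical axis), blue for genes higher in shHSPA8 and red for genes higher in shUCHL1. The bars run from 257 calls without shUCHL1 replicate 1 to 4453 with the crossed replicate block, against 1843 as reported, and the red share is largest with library size alone.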

How the data were processed

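Messenger RNA of 2 libraries each of shUCHL1, shHSPA8 and shCON was sequenced from SMARTER libraries, per the labels' protocols. Sample titles give the groups and replicate numbers. Trimmomatic 0.36 is named in the submitters' processing notes. Aligner, counter, genome build and strandedness: not given in the sources used here, so how reads of near-identical paralogs, overlapping genes and antisense genes were shared out is not recorded, no coordinates are given and no sequences were analysed here. Per the file headers, the authors deposited for each library a read count and an FPKM value. Between 1014 and 1117 genes per library have a decimal fraction, so the deposited read counts were taken to be expected counts and rounded. The deposited FPKM values served only for transcript length, known for 12297 genes. The authors also deposited mean counts, a log2 ratio and a p-value for this pair of lines, with no test or adjustment stated. Of 33229 entries, 16630 are blank and were not used. The symbols of 16597 of the 16599 genes with values match RefSeq's gene table of assembly ARS1.2. The 10 most abundant genes held 6.50% to 8.03% of counts, and 0 mitochondrially encoded genes had values.

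The test was edgeR 4.0.16's quasi-likelihood F test (R 4.3.3) with Benjamini-Hochberg adjustment, after filterByExpr and TMM scaling (factors 0.966 to 1.04). The 6 libraries shared 1 estimate of the spread on 3 residual degrees of freedom, and the fold change used the 4 knockdown libraries. The SE is the absolute log2 fold change divided by the square root of F. Scripts were tested on simulated data. Alternatives were RLE factors, library size alone, DESeq2 1.42.0, limma 3.58.1 (voom), no filter, at least 50 counts in 2 libraries, the 4 knockdown libraries alone, a replicate block, a length offset, a 1.5-fold threshold (glmTreat) and leaving out each of the 6 libraries. Named genes were UCHL1, HSPA8, the 12 highest and 12 lowest called genes with a symbol, separate lines and at least 5 CPM on average, and per list up to 4 called members in its commoner direction and 3 in the other, with levels of any UCH, HSP70 or stem cell list member. The members and the 48 lists were chosen with earlier results of these data known, so list counts are descriptions, set beside those over all genes. Of 239 named called genes, 156 lost their call without at least 1 library. Not all are described, and some genes are not reported here.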

Additional observations from a re-analysis of the deposited data

How the results depend on the processing

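The differences in UCHL1 and HSPA8 were called, in the same direction, under all 17 alternatives (adjusted p at most 0.00657 and 0.0129). The number of called genes, 1843 as reported, was 3116 in the 4 knockdown libraries alone, 2771 with the length offset and 290 against a 1.5-fold threshold, and it ran from 257 to 3084 with 1 library left out. Genes at least 2-fold apart, 581 as reported, numbered 380 with at least 50 counts in 2 libraries and 277 against a 1.5-fold threshold, and 214 to 639 with 1 library left out. Lists with at least 2 times the background share of calls, 25 of 48 as reported, numbered 14 in the 4 knockdown libraries alone and 14 to 32 with 1 library left out. The share of called genes with shCON between the lines, 58.3%, was 56.2% with library size alone, 59.8% with DESeq2, 55.1% with the length offset, 54.1% against a 1.5-fold threshold and 52.5% to 58.0% with 1 library left out. RLE factors, DESeq2, voom and no filter gave 1859, 1526, 1832 and 1660 calls. A line left with 1 library was assumed to vary like the others. The cause of these shifts was not tested.

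Same-numbered libraries of shUCHL1 and shHSPA8 deviated in opposite directions across genes (correlation -0.23), as did those of shCON and shHSPA8 (-0.54), while those of shCON and shUCHL1 deviated together (0.23). The labels do not say what a number marks. A replicate block gave 923 calls, with shCON between the lines in 57.1% of them. The crossed pairing, chosen after seeing the data, gave 4453 calls, 4 lists at 2 times the background and 55.7%. Of 3993 values of named genes under the alternatives, 3199 kept their call, 794 lost it and none reversed. With 2 libraries a line, a difference that missed the threshold is not shown to be absent.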

Other observations

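Targets of YAP and TEAD, the factors of the Hippo pathway, had 2 of 30 tested members called higher in shUCHL1 and 2 higher in shHSPA8, or 13.3% called against 14.6% of all genes, and 0 to 10 called members with 1 library left out. ANKRD1, a nuclear and sarcomere protein often used as a readout of YAP, stood at 95.5 and 86.3 CPM in shUCHL1, 156 and 146 CPM in shHSPA8 and 389.9 and 399 CPM in shCON, so both knockdown lines lay below shCON. NT5E, the surface enzyme CD73, stood at 209 and 208 CPM in shUCHL1 against 287 and 306 CPM in shHSPA8. RBMS3, an RNA-binding protein of the same list, went the other way at 8.49 and 7.19 CPM in shUCHL1 against 3.098 and 4.46 CPM in shHSPA8. NOTCH genes had 2 of 15 tested members called higher in shUCHL1 and 1 higher in shHSPA8, with the ligand JAG1 at 46.3 and 42.4 CPM in shUCHL1 against 20.8 and 25.9 CPM in shHSPA8 and the target HEY1 at 1.22 and 1.92 CPM in shUCHL1 against 3.67 and 3.17 CPM in shHSPA8. The share of the NOTCH list that was called lay near the 14.6% of all genes. The list had 0 to 4 called members with 1 library left out. NT5E and HEY1 lost the call whichever 1 of the 4 knockdown libraries was left out (highest adjusted p 0.146 and 0.237). RBMS3 was not called without shUCHL1 replicate 1 or 2 or shHSPA8 replicate 1 (highest adjusted p 0.189). JAG1 was not called without shUCHL1 replicate 1 or 2 (highest adjusted p 0.0783). ANKRD1 was not called without shUCHL1 replicate 2 (highest adjusted p 0.0657).

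Interferon-induced RSAD2, an antiviral enzyme, stood at 2.75 and 1.68 CPM in shUCHL1, 0.316 and 0.647 CPM in shHSPA8 and 0.317 and 0.122 CPM in shCON, above shCON in shUCHL1. The ETS factor ERG, often found in endothelium, stood at 26.5 and 27.5 CPM in shUCHL1, 46.8 and 46.8 CPM in shHSPA8 and 31.97 and 30.4 CPM in shCON, and NOS3, the endothelial nitric oxide synthase, at 3.12 and 3.42 CPM in shUCHL1 against 1.01 and 0.776 CPM in shHSPA8, in opposite directions. Among ribosomal proteins, RPS2 stood at 991 and 1027 CPM in shUCHL1, 1786 and 1594 CPM in shHSPA8 and 1069.6 and 1208 CPM in shCON and RPL29 at 312 and 299 CPM in shUCHL1 against 575 and 493 CPM in shHSPA8, both higher in shHSPA8. The neurotrophin receptor NTRK2 stood at 4.704 and 4.497 CPM in shUCHL1 against 8.597 and 8.99 CPM in shHSPA8, higher in shHSPA8. RSAD2 and RPL29 were not called without shUCHL1 replicate 1 or 2 or shHSPA8 replicate 1 (highest adjusted p 0.154 and 0.133). ERG, NOS3, RPS2 and NTRK2 were not called without shUCHL1 replicate 1 or 2 (highest adjusted p 0.0657, 0.061, 0.0682 and 0.0985).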
